A study of Mus musculus with 8 samples.

Results

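Noncoding snoRNA host genes make a spliced, polyadenylated RNA that codes for no known protein, and their introns carry small nucleolar RNAs (snoRNAs). The 10 host genes described here were chosen by name: Gas5, Snhg1, Snhg3, Snhg5, Snhg6, Snhg8, Snhg12, Snhg15, Snhg17 and Zfas1. Each has 1 row among the 78317 genes of the expression table, and all 10 passed the filter of a mean of at least 1 TPM that left 17811 genes to test. TPM is a share of each library scaled for transcript length, and the values of a library add up to 1000000.

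RNA was taken from the basilar membrane of the mouse cochlea, on which sensory hair cells sit among supporting cells, at postnatal day 6. The homo group (4 libraries) carries the genotype label Dnajc17 cKO, a conditional knockout of a J-domain protein linked to splicing. The hete group (4 libraries) is titled as heterozygous but has the genotype label WT, so whether these controls carry a mutant allele is not settled by the labels. The sources used here give neither the Cre driver nor the deleted exons. They also do not say whether libraries are of different animals, so the spread behind each p-value may be technical. The library kit selects polyadenylated RNA, so the host values are meant to come from polyadenylated host RNA and not from the snoRNAs cut from the introns. They are given per gene over all its transcripts, and do not show whether some of that RNA kept introns.

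The libraries had 28159 to 28969 genes above 0, and mitochondrial genes took 8.69 to 10.4% of TPM. Sequencing depth is unknown, since TPM keeps none. Dnajc17 itself stood at 29.33, 27.65, 31.08 and 18.04 TPM in the homo libraries, against 26.51, 25.45, 25.09 and 22.06 TPM in the hete libraries. The ranges overlapped (log2 fold change 0.07, SE 0.15, adjusted p = 0.969), so the gene-level value in whole tissue does not check the labels. Of 14 hair cell markers 13 averaged at least 1 TPM and none was at 0 in every library. Their summed level was 214 to 317 TPM in homo and 322 to 483 TPM in hete. Taken singly, 10 of the 13 were lower and 3 higher in homo. None of the 13 had all homo libraries below all hete libraries, which held for 1.41% of all tested genes. By the limma test described below, 4 of the 13 had an unadjusted p under 0.05, against 6.05% of all tested genes. No hair cell marker passed at an adjusted p under 0.05. Their median log2 fold change was -0.15, beside 0.02 over all tested genes. In bulk tissue, fewer cells of a type and less RNA per cell cannot be told apart.

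Many snoRNAs of these genes guide chemical changes on ribosomal RNA, though not Snora73a and Snora73b, which are described below. Box C/D snoRNAs direct methylation of the ribose and box H/ACA snoRNAs direct the making of pseudouridine, and both kinds are released from introns after splicing. What is left, the spliced host RNA, is exported, and on most of these RNAs a ribosome meets a stop codon far upstream of an exon junction. That arrangement marks an RNA for nonsense-mediated decay (NMD), a translation-dependent surveillance pathway, so the level of a host RNA reflects both how much is made and how quickly it is cleared. Many host genes also begin their RNA with a run of pyrimidines, the 5′ terminal oligopyrimidine motif that ribosomal protein mRNAs share.

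The annotation (GENCODE M21) places 36 snoRNA genes inside the 10 hosts, and all 36 lie in introns of the host transcript with the most exons. Gas5 holds 10 of them, Snhg1 8, Snhg12 5, Snhg17 and Zfas1 3 each, Snhg3 and Snhg5 2 each, and Snhg6, Snhg8 and Snhg15 1 each. Snord80 in Gas5 and Snora16a in Snhg12 are each annotated as 2 overlapping genes, so the 36 carry 34 names. Searched as letters, 19 had a box C (TGATGA) in the first 20 bases and a box D (CTGA) that starts in the last 14. Another 10 had ACA in the last 7 bases and 7 had neither, although 2 of these 7 hold TGATGA and then CTGA outside those limits. The sequences below stand for the 2 kinds, from GENCODE M21 transcripts. Snord47, Snord87 and Snord12 come from Gas5, Snhg6 and Zfas1, with box C and box D in capitals. Snora24 comes from Snhg8, the host whose groups stood apart, and Snora73b from Snhg3 is the one embedded snoRNA with a value above 0, both with the ACA in capitals.
Snord47: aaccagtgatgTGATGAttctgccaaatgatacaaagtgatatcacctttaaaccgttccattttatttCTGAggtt
Snord87: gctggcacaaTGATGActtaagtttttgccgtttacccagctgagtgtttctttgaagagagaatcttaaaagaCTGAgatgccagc
Snord12: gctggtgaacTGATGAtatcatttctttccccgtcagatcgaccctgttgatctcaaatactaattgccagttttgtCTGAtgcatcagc
Snora24: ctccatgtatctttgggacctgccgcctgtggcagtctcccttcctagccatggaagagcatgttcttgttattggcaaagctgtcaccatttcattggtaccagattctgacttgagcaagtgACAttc
Snora73b: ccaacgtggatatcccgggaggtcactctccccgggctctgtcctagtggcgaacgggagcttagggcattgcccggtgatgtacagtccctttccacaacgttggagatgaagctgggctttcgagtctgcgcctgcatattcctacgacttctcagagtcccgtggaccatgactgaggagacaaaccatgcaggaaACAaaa

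The first reading frame of the host transcripts was 1 to 96 codons long, with 1 to 7 exon junctions more than 50 bases behind it. Gas5 had 12 exons in 502 bases, and its first reading frame was 23 codons long with 7 junctions more than 50 bases past the stop. Snhg1 had 10 exons, a first frame of 40 codons and 5 such junctions. Snhg8 had 3 exons, a first frame of 1 codon and 2 such junctions. All 10 hosts had at least 1 such junction, as had 6788 of 9424 other spliced long noncoding genes (72.0%). This layout is a property of the annotated transcript and was not measured in these libraries.

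**Figure D1:**
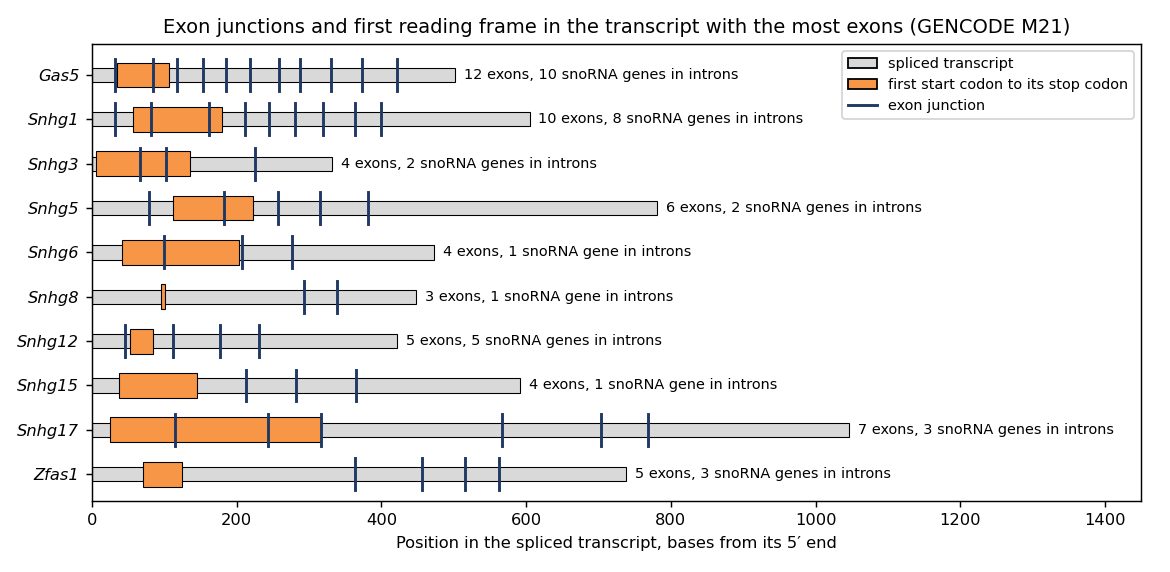
Exon junctions (vertical lines) and the first reading frame (orange) along the spliced transcript with the most exons, in bases from the 5′ end, for the 10 host genes. Every host has a junction more than 50 bases behind the end of the first frame; Gas5 has the most exons, 12, and Snhg8 the fewest, 3.

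A start window was found in RefSeq for 9 of the 10 genes, 11 windows in all, and Snhg6 had none. The search was for C followed by at least 4 bases that are each C or T, beginning within 10 bases of the annotated start on the gene's strand. It matched 5 of the 11 windows (45.5%), in Gas5, Snhg3, Snhg5, Snhg8 and Snhg12, against 30.7% of all 32851 windows and 26.9% of the windows of coding snoRNA host genes. Those of Gas5, Snhg8 and Snhg12 are shown because their runs, of 6, 6 and 8 bases, were longer than the 5 bases of the others. They are 80 bases long, 40 before the start, from GRCm38.p6, with the run in capitals: Gas5 at chr1:161035126-161035205 on the plus strand, Snhg8 at chr3:123508297-123508376 on the minus strand and Snhg12 at chr4:132308638-132308717 on the plus strand. A match describes letters and not a working motif.
Gas5: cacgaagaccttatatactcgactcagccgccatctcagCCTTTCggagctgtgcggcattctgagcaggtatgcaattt
Snhg8: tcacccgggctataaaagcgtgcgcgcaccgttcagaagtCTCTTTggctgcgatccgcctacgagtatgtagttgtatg
Snhg12: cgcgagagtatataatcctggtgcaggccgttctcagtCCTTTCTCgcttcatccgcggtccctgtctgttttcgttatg

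No host gene passed the test between homo and hete libraries (limma on log2(TPM + 1), adjusted p under 0.05). Across all tested genes 2 passed, which is 0.0112%, with 1 in each direction (0.00561% each), so a count of 0 among 10 host genes is near the background. At an unadjusted p under 0.05 there was 1 host gene, Snhg8, against 6.05% of all tested genes. The log2 fold changes of the hosts had a median of -0.03, beside 0.02 over all tested genes and -0.015 over 2870 tested long noncoding genes. Their median size was 0.04, beside 0.09 over all tested genes, while their median SE of 0.13 was close to the 0.12 of all tested genes. By sign 4 were higher in homo and 6 lower, and 2 of the 4, Snhg12 and Snhg15, turned to the lower side under quantile or median-ratio scaling. A p-value that misses the threshold does not show equal levels, and the intervals below give what these libraries leave possible.

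**Figure D2:**
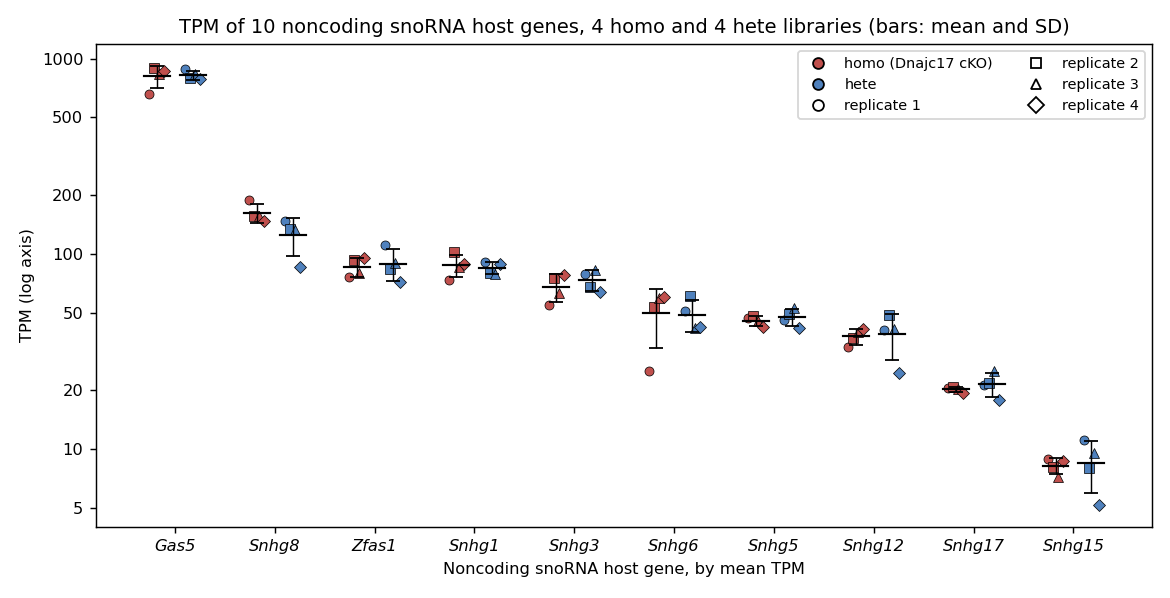
TPM (log axis) of the 10 host genes in each library, homo left of hete; points are single libraries (n = 4 each) and bars are means with SD. The groups overlap for every host except Snhg8, whose 4 homo libraries (147.77 to 187.91 TPM) lie above its 4 hete libraries (85.39 to 146.44 TPM).

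The hosts differed in level far more than either group did from the other. Averaged over all 8 libraries, Gas5 led with 817 TPM, followed by Snhg8 with 143 TPM, Zfas1 with 87.5 TPM and Snhg1 with 86.1 TPM. Snhg3 averaged 70.5 TPM, Snhg6 49.1 TPM, Snhg5 46.4 TPM and Snhg12 38.3 TPM. Snhg17 with 20.9 TPM and Snhg15 with 8.32 TPM came last. The ranges over 8 libraries stayed apart between Gas5 and Snhg8 and between Snhg17 and Snhg15, and overlapped for every other pair of neighbours in this order.

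Gas5 (growth arrest-specific 5, ENSMUSG00000053332, chromosome 1) is a box C/D host whose RNA is known to build up when cells stop growing or when translation is blocked. It ranked 8th in mean TPM among 32897 long noncoding genes of the table. It stood at 658.08, 894.89, 832.19 and 859.14 TPM in homo, against 878.5, 790.81, 837.99 and 785.95 TPM in hete. Both the highest and the lowest of the 8 values were in homo libraries, so the groups overlapped. The means were 811 ± 105 TPM in homo and 823 ± 43.6 TPM in hete (SD, n = 4 each), a log2 fold change of -0.03 (SE 0.10, 95% interval -0.25 to 0.19, adjusted p = 0.979).

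Snhg1 (ENSMUSG00000108414, chromosome 19) carries Snord22 and its neighbours, and was an early example of a gene whose introns are conserved while its exons are not. It stood at 73.77, 101.83, 85.69 and 88.98 TPM in homo, against 90.47, 79.92, 78.98 and 89.03 TPM in hete. The hete libraries lay inside the homo range, with a log2 fold change of 0.04 (SE 0.10, 95% interval -0.17 to 0.26, adjusted p = 0.969). Snhg5 (ENSMUSG00000097195, chromosome 9), the host of Snord50a and Snord50b, stood at 47.07, 47.77, 45.08 and 42.04 TPM in homo, against 45.75, 49.42, 52.66 and 41.44 TPM in hete. Here the homo libraries lay inside the hete range, at a log2 fold change of -0.05 (SE 0.08, 95% interval -0.24 to 0.13, adjusted p = 0.954).

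Snhg6 (ENSMUSG00000098234, chromosome 1), the host of Snord87, had the widest spread of the 10. It stood at 25.06, 53.18, 59.48 and 60.14 TPM in homo, against 50.82, 60.66, 41.48 and 42.34 TPM in hete. Homo replicate 1 was the lowest library and the other homo libraries lay inside the hete range. The log2 fold change of -0.04 had an SE of 0.28 and a 95% interval of -0.70 to 0.61 (adjusted p = 0.992), and without homo replicate 1 it was 0.25. Zfas1 (ENSMUSG00000074578, chromosome 2), the host of Snord12 and its relatives, is transcribed opposite the start of Znfx1. It stood at 75.99, 93.41, 79.59 and 94.9 TPM in homo, against 110.96, 83.64, 89.53 and 72.1 TPM in hete. The hete libraries held both extremes, at a log2 fold change of -0.04 (SE 0.13, 95% interval -0.33 to 0.25, adjusted p = 0.979).

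Snhg8 (ENSMUSG00000104960, chromosome 3), the host of the H/ACA snoRNA Snora24 printed above, had the largest fold change of the 10. It stood at 187.91, 156.65, 156.1 and 147.77 TPM in homo, against 146.44, 134.21, 132.93 and 85.39 TPM in hete. All homo libraries were above all hete libraries, but the lowest homo and the highest hete library were 147.77 and 146.44 TPM. Snhg8 was the 1 host of 10 without overlap, which was found for 3.99% of all tested genes in either direction and for 2.58% in this one. The means were 162 ± 17.7 TPM in homo and 125 ± 26.9 TPM in hete (SD, n = 4 each). The log2 fold change of 0.40 (SE 0.16, 95% interval 0.04 to 0.76), or 1.32-fold, had an unadjusted p of 0.0343 and did not pass over all tested genes (adjusted p = 0.785). Without hete replicate 4 the log2 fold change was 0.23, and without both homo replicate 1 and hete replicate 4 it was 0.15. The adjusted p ranged from 0.737 to 0.991 over the alternatives tried.

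Most marker sums had an extreme in homo replicate 1 or hete replicate 4, but those of neurons and macrophages did not. Summed neuron markers were highest in homo replicate 4 (488 TPM) and lowest in hete replicate 1 (222 TPM). Summed macrophage markers were highest in homo replicate 2 (274 TPM) and lowest in homo replicate 4 (216 TPM). Hete replicate 4 had the highest summed hair cell markers, 483 TPM, and the lowest summed erythroid markers, 2467 TPM. It also had the lowest summed cell cycle markers, 157 TPM, and the lowest summed granulocyte markers, 5.69 TPM. Homo replicate 1 had the highest sums of supporting cell (7549 TPM), Schwann and satellite glia (1928 TPM) and mesenchyme markers (3207 TPM). Homo replicate 1 had 57.9 TPM of summed granulocyte markers (4 of 6 at a mean of at least 1 TPM), where the other homo libraries had 11.2 to 18.0 TPM and the hete libraries 5.69 to 8.49 TPM. All 10 supporting cell markers averaged at least 1 TPM, and their sum was 6924 to 7549 TPM in homo and 6130 to 7031 TPM in hete. None of these markers was at 0 in every library, and their part in the Snhg8 values was not tested.

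**Figure D3:**
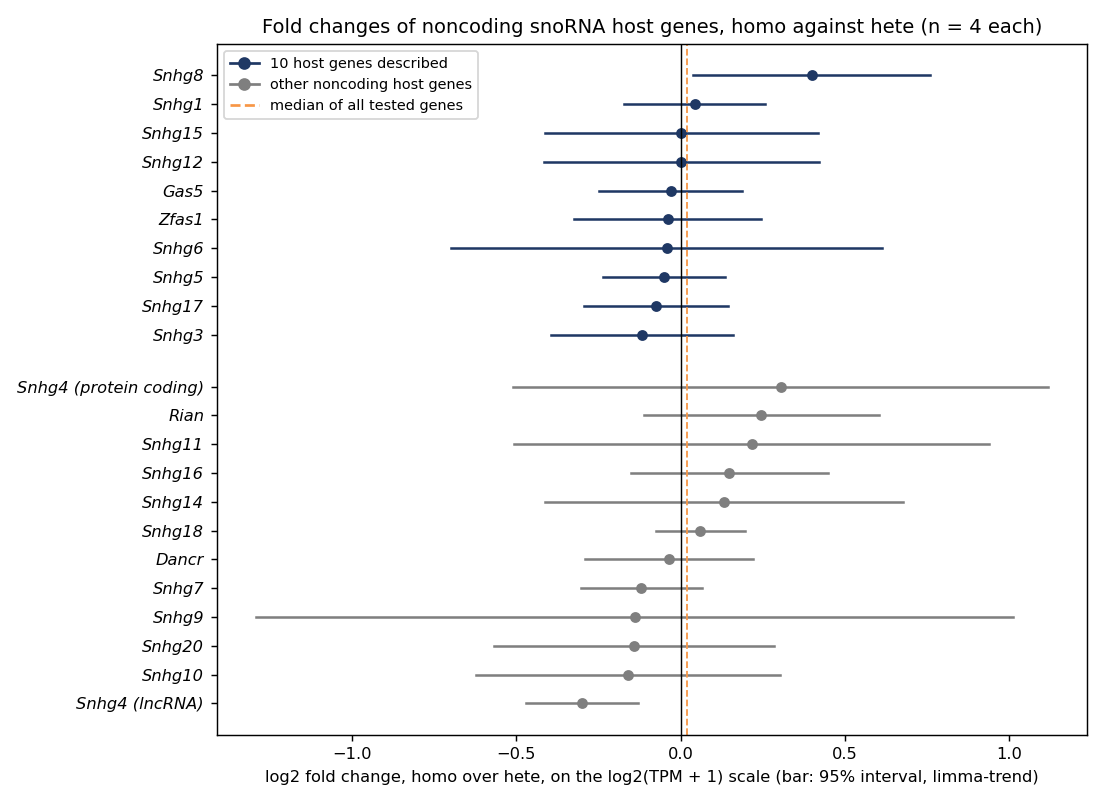
Log2 fold change, homo over hete, of the 10 host genes (dark) with 95% intervals (n = 4 libraries each, limma on log2(TPM + 1)). Below them, in grey, are 12 rows of other noncoding hosts, and the dashed line is the median of all tested genes, 0.02. Among the 10, every interval but that of Snhg8 (0.04 to 0.76) spans 0, and Snhg6 has the widest, -0.70 to 0.61. Among the other hosts only the long noncoding row of Snhg4 (-0.47 to -0.13) does not span 0.

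Snhg3 (ENSMUSG00000085241, chromosome 4) hosts Snora73a and Snora73b, the mouse U17 RNAs, which act in the cutting of the ribosomal RNA precursor and not in base modification. It stood at 54.95, 75.35, 62.74 and 77.93 TPM in homo, against 79.16, 67.58, 82.6 and 63.89 TPM in hete. The groups overlapped, with a log2 fold change of -0.12 (SE 0.12, 95% interval -0.39 to 0.16, adjusted p = 0.919), and it ranged from -0.19 to -0.02 with a library left out, nearest 0 without homo replicate 1. Snora73b was listed at 0 TPM in all 4 homo libraries and in hete replicate 3, and at 15.29, 40.23 and 14.98 TPM in hete replicates 1, 2 and 4. Snora73a and Snora73b share 198 of 205 bases, so reads can be split between them, and an entry of 0 can be a failed estimate. Of the 36 embedded snoRNA genes 32 had a row, and Snora73b was the only one above 0, as 13 of all 1507 snoRNA genes in the table were.

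Snhg15 (ENSMUSG00000085156, chromosome 11), the host of Snora9, was the lowest of the 10. It stood at 8.89, 8.05, 7.17 and 8.71 TPM in homo, against 11.08, 8.02, 9.49 and 5.18 TPM in hete. The homo libraries lay inside the hete range, at a log2 fold change of 0.0019 (SE 0.19, 95% interval -0.41 to 0.42, adjusted p = 0.999). Snhg17 (ENSMUSG00000085385, chromosome 2) holds 3 H/ACA-type snoRNA genes. It stood at 20.6, 20.69, 20.31 and 19.44 TPM in homo, against 21.21, 21.86, 25.24 and 17.84 TPM in hete. The coefficient of variation was 2.81% in homo and 14.1% in hete, at a log2 fold change of -0.07 (SE 0.10, 95% interval -0.29 to 0.14, adjusted p = 0.940).

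Snhg12 (ENSMUSG00000086290, chromosome 4) carries both kinds, among them Snora61 and Snord99. It stood at 33.17, 36.98, 39.82 and 41.29 TPM in homo, against 40.58, 48.85, 41.17 and 24.52 TPM in hete. The homo libraries lay inside the hete range, with a log2 fold change of 0.0016 (SE 0.19, 95% interval -0.42 to 0.42, adjusted p = 0.999).

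Added up, the 10 host RNAs came to 1185.49, 1488.8, 1388.17 and 1440.34 TPM in homo, against 1474.97, 1344.97, 1392.07 and 1227.68 TPM in hete. The means were 1376 ± 133 TPM in homo and 1360 ± 103 TPM in hete (SD, n = 4 each), a difference well inside the spread. Gas5 made up 55.5 to 60.1% of the sum in homo and 58.8 to 64.0% in hete. The lowest sum of each group was in homo replicate 1 and hete replicate 4.

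Those 2 libraries also held the lowest value of every host. Homo replicate 1 was lowest of 8 for Gas5, Snhg1, Snhg3 and Snhg6, and highest for Snhg8. Hete replicate 4 was lowest for Snhg5, Snhg8, Snhg12, Snhg15, Snhg17 and Zfas1. The hosts' median deviation from each gene's mean over the libraries, in log2(TPM + 1), was -0.18, 0.11, -0.02 and 0.08 in homo and 0.10, -0.03, 0.08 and -0.19 in hete.

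Short coding genes deviated in a like way. For 599 coding genes whose longest transcript is under 1000 bases, the median deviation was -0.12, 0.03, -0.04 and 0.07 in homo and 0.12, 0.03, -0.0038 and -0.07 in hete. For 5463 coding genes of 4000 bases or more it was 0.07, -0.02, 0.02 and -0.03 in homo and -0.11, -0.03, 0.01 and 0.08 in hete. The low libraries for short genes, homo replicate 1 and hete replicate 4, were the high ones for long genes. The 35 coding snoRNA hosts had a median deviation of -0.18 in hete replicate 4 and 0.01 in homo replicate 1. The 2860 other tested long noncoding genes did not share the low values of the hosts. Their median deviation was -0.0042 in homo replicate 1 and 0.06 in hete replicate 4. The split by length was added after the values were seen, and its part in the host values was not tested.

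**Figure D4:**
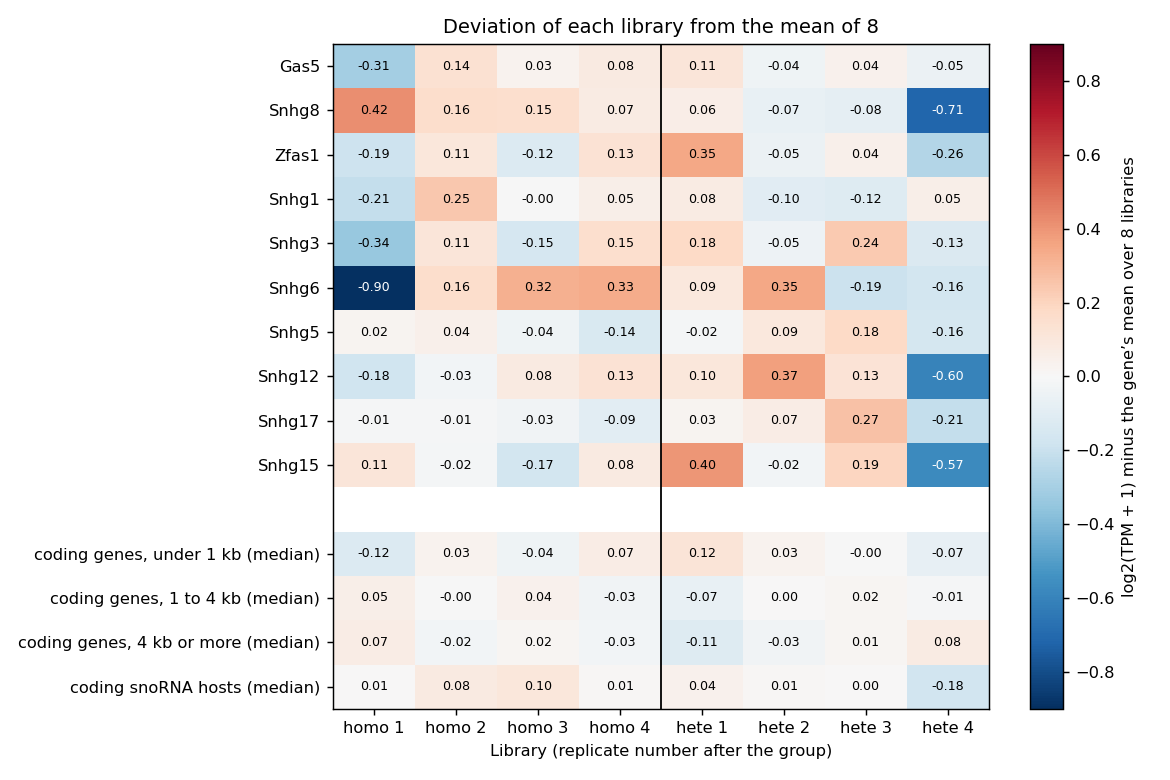
Deviation of each host gene from its own mean over the 8 libraries, in log2(TPM + 1), by library with homo left of hete, above the medians of coding genes in 3 length classes and of coding snoRNA hosts; red is above and blue below the mean. Homo replicate 1 (host median -0.18) and hete replicate 4 (host median -0.19) are the lowest libraries.

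The genes whose pattern over the 8 libraries was most like the hosts' mean standardised level were Pop7 (Pearson r 0.984, Spearman rho 1.0), Erh (0.974, rho 0.976), Cox4i2 (0.969, rho 0.952), Rps19 (0.961, rho 0.881) and Psmb4 (0.960, rho 0.905). Pop7 is a protein subunit of RNase P and RNase MRP, Rps19 a protein of the small ribosomal subunit and Psmb4 a proteasome subunit. Pop7 stood at 19.15, 25.11, 22.48 and 23.8 TPM in homo, against 28.43, 23.59, 25.61 and 15.59 TPM in hete. These are the highest values out of all tested genes over libraries that share their TPM scaling, and are given as a description. Among the hosts themselves, r with the mean ranged from 0.316 for Snhg1 to 0.867 for Zfas1. Each host is part of that mean, which raises its r, so the range does not show that the hosts moved together.

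Other genes of the pathway were read from lists. None of the genes in these lists passed the limma test over all tested genes. Of 12 rows of other noncoding hosts 6 were higher and 6 lower in homo (median log2 fold change 0.01), and 1 had an unadjusted p under 0.05. That was the long noncoding row of Snhg4 (ENSMUSG00000117869), at 16.96, 17.46, 16.03 and 16.27 TPM in homo against 20.98, 18.93, 22.83 and 20.55 TPM in hete. All homo libraries were below all hete libraries, which held for 1.41% of tested genes, with a log2 fold change of -0.30 (SE 0.08, adjusted p = 0.582). A second, protein-coding row carries the same gene name and went the other way, with overlapping groups (log2 fold change 0.30, SE 0.36). It stood at 1.86, 6.34, 1.77 and 2.55 TPM in homo against 1.39, 3.93, 2.54 and 1.13 TPM in hete. Reads may be split between the 2 rows, so the gap between groups holds for the long noncoding row only. Rian, an imprinted host of box C/D snoRNAs, was at 0.25 (SE 0.16, and 0.15 without hete replicate 1, 0.16 without hete replicate 4 and 0.16 without homo replicate 4). Snhg7 was at -0.12 (SE 0.08), and at -0.06 without homo replicate 2.

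Of 35 protein-coding snoRNA hosts 27 were higher and 8 lower in homo, with a median of 0.06 beside 0.02 for all tested genes, and 5 had an unadjusted p under 0.05, beside 6.05% of all tested genes. Of all tested genes 56.3% were higher in homo. In 2 of the 35, Wdr43 and Rpl5, all homo libraries were above all hete libraries, as in 2.58% of all tested genes. The 3 with the smallest p were Wdr43, a ribosome assembly factor (log2 fold change 0.28, SE 0.09, adjusted p = 0.710), Rpl5, a protein of the large subunit (0.20, SE 0.07, adjusted p = 0.710), and Ppan, another assembly factor (0.30, SE 0.11, adjusted p = 0.745). Of 16 proteins of the snoRNA particle and its assembly 12 were higher and 4 lower (median 0.07), 1 with an unadjusted p under 0.05. That was Dkc1, the pseudouridine synthase, at 24.24, 25.36, 24.03 and 22.76 TPM in homo against 20.97, 20.15, 23.4 and 20.34 TPM in hete. Its log2 fold change was 0.18 (SE 0.07, adjusted p = 0.794). Ruvbl1, an assembly ATPase, was at 0.17 (SE 0.09) and Snu13, which binds the C/D core, at 0.14 (SE 0.08), but at 0.09 and 0.07 without hete replicate 4. Dkc1 and Nop56 belong to both lists.

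Among 15 NMD factors 6 were higher and 9 lower in homo (median -0.04). Gspt1, the release factor eRF3a, had a log2 fold change of 0.14 (SE 0.06, adjusted p = 0.819) and was the 1 member with an unadjusted p under 0.05. Upf3a, which links the decay factors to the exon junction complex, was at -0.10 (SE 0.07), and at -0.06 without homo replicate 1. Of 8 genes of the exon junction complex, the mark that NMD reads, 7 were higher (median 0.06), and 1 had an unadjusted p under 0.05. That was Eif4a3, its anchoring helicase, at 0.19 (SE 0.07, adjusted p = 0.745). Rnps1 was at 0.19 (SE 0.14), at 0.33 without hete replicate 2 and at 0.11 without hete replicate 4. Casc3 was at 0.08 (SE 0.08), at 0.05 without hete replicate 1 and at 0.13 without hete replicate 4.

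Of 9 tested stress-response transcripts described as NMD targets 2 were higher and 7 lower in homo (median -0.10), 1 with an unadjusted p under 0.05. Asns, asparagine synthetase, stood at 19.3, 16.62, 17.48 and 19.05 TPM in homo against 12.04, 16.63, 15.56 and 10.85 TPM in hete (log2 fold change 0.39, SE 0.13, adjusted p = 0.710). Upp1 was at -0.23 (SE 0.14) and Ddit3 at -0.16 (SE 0.11), but at -0.13 and -0.05 without hete replicate 4.

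**Figure D5:**
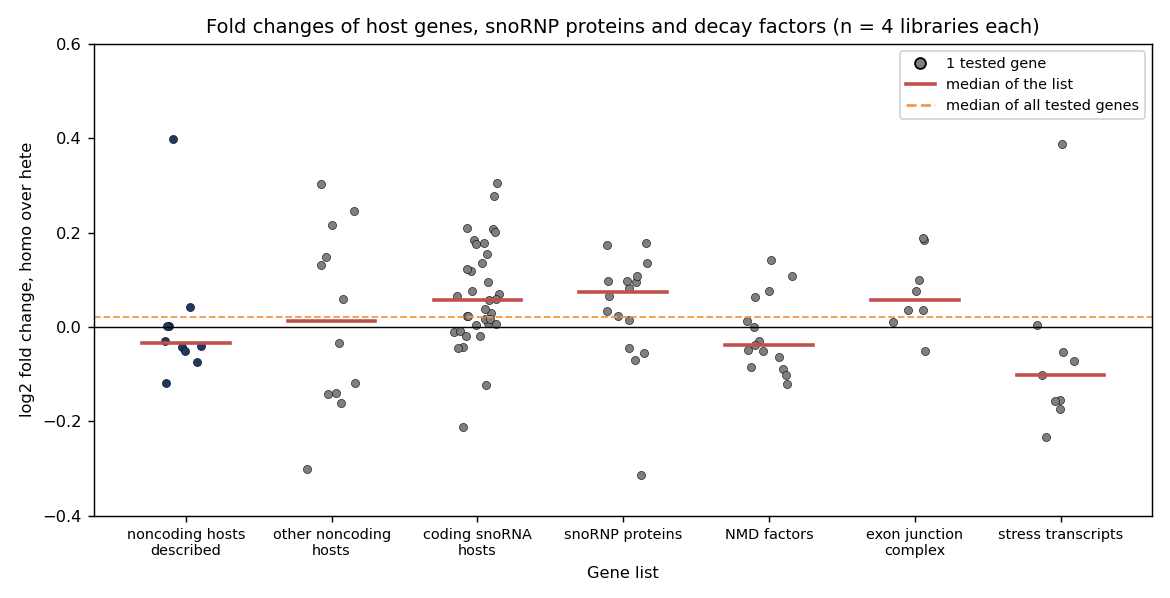
Log2 fold change, homo over hete, of every tested gene in the host list and the pathway lists (n = 4 libraries each). Red bars are list medians, from -0.10 for the stress transcripts to 0.07 for the snoRNA particle proteins, and the dashed line is the median of all tested genes, 0.02.

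The nearest tested neighbours of the hosts, 23 genes, split into 14 higher and 9 lower in homo, with none called by limma, none with an unadjusted p under 0.05 (6.05% of all tested genes) and none with groups apart (3.99%), which is near those background shares. The kit keeps strand, but whether counting used it is not given in the sources used here, so reads of overlapping genes may be shared. Zbtb37, opposite Gas5, was at -0.31 (SE 0.15), and Rcc1, which overlaps Snhg3 on the same strand, at 0.15 (SE 0.09). Znfx1, opposite Zfas1, was at -0.14 (SE 0.11), and at -0.03 without hete replicate 4. Slc3a2, 105 bases from Snhg1 on the other strand, was at -0.01 (SE 0.07), and Prss12, 954 bases from Snhg8, at 0.02 (SE 0.14). Zfp949, next to Snhg5, had the widest spread of the neighbours, at 61.7, 57.03, 54 and 32.26 TPM in homo against 34.52, 12.6, 14.02 and 59.65 TPM in hete (log2 fold change 0.98, SE 0.52, adjusted p = 0.870).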

How the data were processed

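Total RNA of the basilar membrane went into a stranded kit for polyadenylated RNA, per the labels' protocols. The authors deposited TPM per gene, with every library summing to 1000000 within 1. The submitters' processing notes name fastp, HISAT2, StringTie, RSEM, DESeq2 and the build GRCm39, with no roles or versions. Samples were grouped by title. Genes averaging 1 TPM or more across libraries entered limma 3.58.1 (R 4.3.3) on log2(TPM + 1), with a mean trend, robust variance moderation and Benjamini-Hochberg adjustment over 17811 genes. On this scale the fold changes of low genes come out too small. The host genes and gene lists were chosen with earlier results of these data known. Named genes are the 10 hosts, Dnajc17, the nearest tested neighbours, the 3 genes of smallest p in each pathway list, the 5 most similar genes and embedded snoRNAs above 0, and a few genes under this rule are not reported here. Gene structure came from GENCODE M21 and start windows from RefSeq GRCm38.p6. The alternatives were 2 scalings, 2 filters, a pseudocount of 0.1, a replicate block, no robust option, and each library left out. Deposited splicing and ontology tables were not used.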

Additional observations from a re-analysis of the deposited data

Results flagged for a closer look

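Among 50 named genes, each group of 4 libraries was examined for a library far from the other 3. Of 100 groups 4 had one (4.0%), where chance gives about 1 in 20, and all 4 were hete replicate 4. Ddit3, a stress-response transcription factor, stood at 59.18 TPM there, and at 42.6 to 45.25 TPM in the other hete libraries. Ndst3, beside Snhg8, stood at 2.89 TPM, and at 2.19 to 2.23 TPM in the others. Purb, beside Snhg15, stood at 35.27 TPM, and at 30.98 to 31.63 TPM in the others. Ruvbl1 stood at 39.69 TPM, and at 49.88 to 51.67 TPM in the others. No host gene was among them.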

How the results depend on the processing

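No host gene was called under any of the 16 alternatives, and Snhg8 was higher in homo in all 16. Over all genes, limma called 2 genes, 1 with no filter on low values, 1 with the replicate block, and 1 to 5 with a library left out. The hosts' median log2 fold change was -0.0348, and -0.1233 to 0.039 with a library left out. Of 160 pairs of a host and an alternative 24 turned sign and 0 passed the threshold. Filters, the replicate block and the robust option cannot move a host's fold change, so only the other alternatives could turn a sign. Quantile normalization put Snhg12 at -0.0234, Snhg15 at -0.012 and Cops5 at -0.0109, and median-ratio scaling put them at -0.0207, -0.0193 and -0.0152. Without both homo replicate 1 and hete replicate 4, a choice made after seeing the data, Gas5 was 0.0453, Snhg1 0.1461, Snhg5 -0.129, Snhg6 0.1872, Snhg12 -0.1383, Snhg15 -0.2236, Snhg17 -0.1653, Syncrip -0.0746, Cops5 0.0358, Dnajc17 -0.0392, Prss12 -0.0984 and Gm11472 0.0858. With each library left out, log2 fold changes that turned sign ranged as follows: Snhg1 -0.0323 to 0.1209, Snhg5 -0.1124 to 0.0004, Snhg6 -0.1614 to 0.2487, Snhg12 -0.198 to 0.124, Snhg15 -0.1878 to 0.1345, Snhg17 -0.1575 to 0.0018, Zfas1 -0.1343 to 0.0707, Gas5 -0.0805 to 0.0672, Dnajc17 -0.0136 to 0.2373, Serpinc1 -0.0545 to 0.0168, Slc3a2 -0.0598 to 0.0223, Syncrip -0.069 to 0.026, Sgk3 -0.0045 to 0.1369, Cops5 -0.0179 to 0.0259, Prss12 -0.0418 to 0.1232, Rab42 -0.0619 to 0.299, Gm11472 -0.362 to 0.1183. The cause was not tested. Same-numbered libraries did not deviate together (r from -0.084 to 0.049), so the values show no pairing by number. The replicate block left the hosts' median at -0.0348, as it must where every number is in both groups. Depth is unknown, and 4 libraries a group limit the precision.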
